A study of Mus musculus with 11 samples.

Results

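The libraries described here come from wild-type (WT) and Tet1, Tet2 and Tet3 triple-knockout (TKO) mouse embryonic stem cells (ESCs). The question was which RNA differences between the genotypes were present after 4 h of a transcription-blocking treatment whose completeness was not measured. They are the 4 ribodepleted RNA-Seq libraries of cells given 10 µg/ml α-amanitin for 4 h, 2 from WT and 2 from TKO ESCs, out of 11 libraries in the series. A gene was included when its mean deposited TPM (reads of a gene per length of its transcript, as a share of the library) over these 4 libraries was above 1, which left 12357 of the 23284 listed genes. At the edge of that rule, 9030025P20Rik was just inside (1.01 and 1.49 TPM in WT, 1.05 and 0.454 TPM in TKO cells) and Pcdhga2 just outside (1.15 and 1.27 TPM in WT, 0.759 and 0.816 TPM in TKO cells).

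All cells of both genotypes were grown on gelatin in serum with LIF, the cytokine that keeps mouse ESCs undifferentiated. The 4 libraries used for reference, 2 per genotype, are labelled non-treated (0h) and are called 0 h. The study describes an equal volume of water as the control of its amanitin treatment. No library of cells kept for 4 h with water is in the series. Between 4 h and 0 h, toxin and time in culture therefore cannot be told apart. The TKO line lacks all 3 Tet genes and had been made earlier, and neither the strain of the cells nor the number of clones per genotype is given in the sources used here. Line differences and loss of Tet therefore cannot be told apart in the comparison of WT with TKO. The study calls the replicates biological duplicates. With 2 per group, the p-values measure the spread between these libraries.

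Tet enzymes are dioxygenases that oxidise 5-methylcytosine to 5-hydroxymethylcytosine (5hmC) in DNA, and 5hmC has also been found in RNA. In mouse ESCs Tet1 and Tet2 are the main family members, and Tet3 is scarce. α-Amanitin, a mushroom toxin, binds RNA polymerase II and stops messenger RNA synthesis, so that long-lived transcripts persist while short-lived ones are depleted. RNA polymerases I and III resist the toxin far better. How complete the block was at 4 h was not measured here. The RNA found at 4 h may thus include some made after the toxin was added.

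The 4 libraries held 25507874 to 27647022 recovered reads (see the processing notes) and 17086 to 17572 genes above 0. Values are given as scaled TPM, the deposited TPM divided by a size factor for each library. Differences are TKO minus WT in log2(scaled TPM + 1), and the added 1 shrinks those of genes with low levels. A gene was called when limma's adjusted p was below 0.05 and the difference above 1.5-fold, and "rose", "fell", "higher" and "lower" are used of called genes. The first principal component of the 8 treated and untreated libraries held 75.5% of the variance, with the genotypes on opposite sides. On the second component, with 14.3%, the TKO 4 h replicate 1 lay at -2.21, away from its replicate at -14.9 and from the WT 4 h libraries at -14.8 and -11.9. The 2 TKO libraries at 4 h also differed from each other by more than counting noise (chi-square per degree of freedom of 7.83, against 2.44 for the WT pair), so results that rest on TKO replicate 1 are given without it as well. TPM are shares of a library, so a change in the total amount of RNA per cell would not be seen.

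Marker values in this paragraph are deposited TPM, not scaled. The 10 ESC markers summed to 5210 and 5180 TPM for the WT libraries, against 4840 and 4960 TPM for the TKO libraries. Both TKO size factors (1.04 and 0.981) exceeded both WT ones (0.892 and 0.921), so scaling would widen that gap. Dppa5a, not called, was a large part of the sum and went the other way, with 1820 and 1710 TPM (WT) against 2070 and 2210 TPM (TKO). Zfp42, Esrrb and Lin28a were lower in TKO, and no ESC marker was higher. The 15 fibroblast or feeder markers summed to 116 and 139 TPM in WT and 168 and 207 TPM in TKO. Among them 7 were under 1 TPM in all 4 libraries, Col1a2, Fbn1 and Tagln were higher and Acta2 was lower. Visceral endoderm markers summed to 2.81 to 3.89 TPM with 6 of 8 under 1 TPM. The 5 neural markers summed to 173 and 180 TPM in TKO and 194 and 201 TPM in WT. Most of that sum was Tubb3, not called, at 138 and 146 in TKO and 174 and 181 in WT. Nes was higher in TKO, at 30.8 and 30.4 against 17.6 and 17.1 in WT, and no neural marker was lower. In bulk RNA fewer cells of a type and less RNA per cell cannot be told apart.

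The knocked-out genes were examined first. Tet1 (chr10:62267318-62361866, minus strand; positions of genes are in NCBIM37, which is mm9) measured 122 and 118 scaled TPM in WT and 27.7 and 21.7 in TKO cells after amanitin, a log2 difference of -2.24 (SE 0.10, adjusted p = 9.41e-07). Tet2 (chr3:133126643-133207354, minus strand) measured 45.3 and 44.4 in WT and 7.42 and 6.03 in TKO cells, a difference of -2.57 (SE 0.096, adjusted p = 3.01e-07). Neither group overlapped the other, and both transcripts were reduced rather than absent in the TKO libraries. Tet3 (chr6:83312367-83391672, minus strand) was low everywhere, at 1.19 and 1.16 scaled TPM in WT against 1.33 and 1.18 in TKO cells, with a difference of 0.05 (adjusted p = 0.673) that became -0.20 under quantile normalisation. The whole-gene values do not show which exons were read, so reads from parts of a gene outside a deletion are included in them, and Tet3 does not check the labels.

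After 4 h of amanitin 1369 genes were higher in TKO cells (11.1% of those tested) and 720 were lower (5.83%). Higher calls made up 65.5% of all calls with size factors, 81.3% with the deposited TPM as they are (1922 higher and 443 lower, with the median of all genes shifted from -0.005 to 0.14), and 54.4% with quantile normalisation (1040 and 872). The genes that were higher in TKO were mostly of low abundance, with a median of 5.87 scaled TPM over the 4 libraries, against 15.5 for the genes that were lower and 22.1 for those not called. By mass the balance was the other way. The genes called lower held 5.18 ± 0.032% of the TPM in WT and 3.22 ± 0.0052% in TKO cells, and those called higher held 1.32 ± 0.037% in WT and 3.03 ± 0.099% in TKO cells (SD, n = 2 each). These sums describe genes that the test itself selected.

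**Figure D1:**
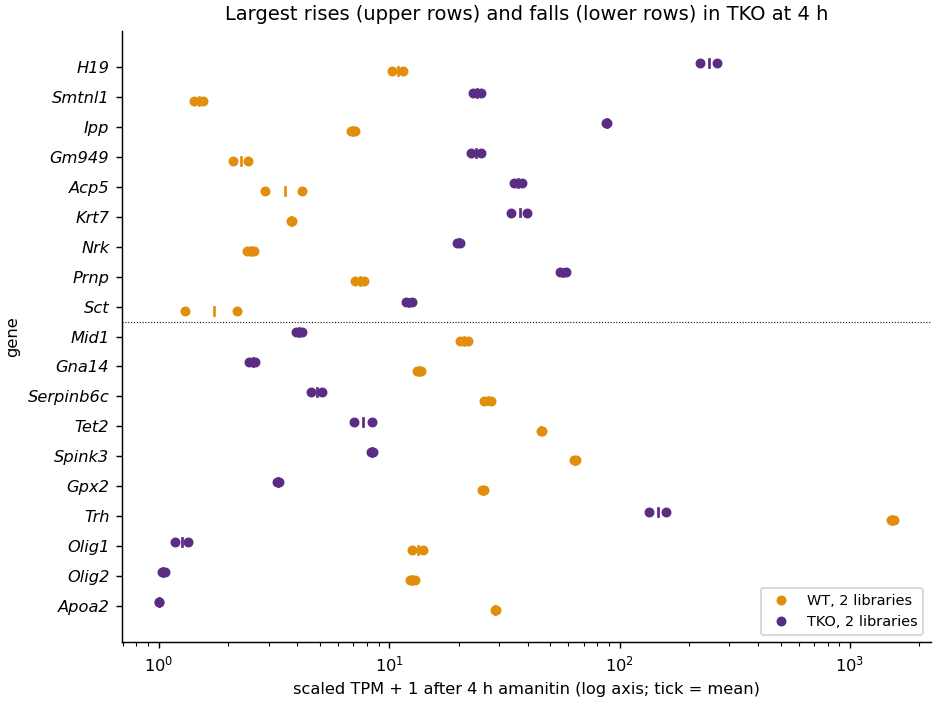
Scaled TPM + 1 after 4 h of amanitin, on a log axis, for genes with the largest rises (upper rows) and falls (lower rows) in TKO cells. Each point is a library (2 WT, 2 TKO) and each tick a group mean. Genes were chosen among those whose libraries do not overlap between the 2 genotypes, as was the case for 9690 of the 12357 tested genes. Apoa2 has no reads in either TKO library.

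The largest rise belonged to H19 (chr7:149761434-149764048, minus strand), the maternally expressed imprinted long non-coding RNA. It measured 9.31 and 10.4 scaled TPM in WT and 223 and 264 in TKO cells after amanitin, a difference of 4.49 (SE 0.083, adjusted p = 1.84e-08), and 4.54 at 0 h. Smtnl1, a smoothelin-like muscle protein, rose from 0.426 and 0.552 to 22.2 and 24.1 (4.02). Ipp, a kelch-family gene named for its promotion by an intracisternal A particle, a mouse retroviral element, rose from 6.09 and 5.82 to 87.5 and 86.3 (3.66). All 3 were low in both WT libraries and close between the 2 TKO libraries. Acp5, the tartrate-resistant acid phosphatase of osteoclasts, rose from 3.2 and 1.9 to 33.8 and 36.7 (3.38). Nrk, a kinase of placental trophoblast, rose from 1.41 and 1.6 to 19.3 and 18.7 (3.00), and the prion protein gene Prnp from 6.1 and 6.8 to 54.0 and 57.8 (2.93). The predicted gene Gm949 (3.40), the hormone gene Sct, or secretin (2.86), and the keratin gene Krt7, described with the trophectoderm markers, were also among the 10 largest rises. The wide spread for Sct, 1.18 and 0.295 in WT and 11.6 and 10.9 in TKO cells, came with a mean of 40.8 reads per library.

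The largest fall was that of Apoa2 (chr1:173155185-173156510, plus strand), an apolipoprotein of high-density lipoprotein. WT cells held 27.9 and 28.0 scaled TPM from 194 and 195 reads, and no read was found in either TKO library, so the level was at least 67.4-fold lower when 3 reads per TKO library are taken as the limit. The oligodendrocyte-lineage transcription factor genes Olig2 (chr16:91225795-91228922) and Olig1 (chr16:91270014-91272184) are neighbours. Olig2 measured 11.3 and 12 scaled TPM in WT and 0.0301 and 0.062 in TKO cells (-3.59, adjusted p = 4.04e-08). Olig1 measured 11.6 and 13.1 in WT and 0.338 and 0.174 in TKO cells (-3.41, adjusted p = 1.58e-07). Both were thus near the limit of detection in TKO ESCs. Trh (chr6:92192055-92194644, minus strand), the precursor of thyrotropin-releasing hormone, fell from 1550 and 1508 to 133 and 157 (-3.39, SE 0.077, adjusted p = 2.36e-08) and was the most abundant RNA among the large changes. Gpx2, a glutathione peroxidase, fell from 24.7 and 24.4 to 2.27 and 2.33 (-2.95). The others, which fell by 2.38 to 2.93 on the log2 scale, were Spink3, a trypsin inhibitor, Serpinb6c, a serpin, Gna14, a G protein alpha subunit, Mid1, a ubiquitin ligase of microtubules, and Tet2 itself.

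The 10 most abundant called genes were all lower in TKO cells, with smaller differences. Hspa8, the constitutive Hsc70 chaperone, measured 3802 and 3849 scaled TPM in WT and 2271 and 2477 in TKO cells (-0.69, adjusted p = 7.77e-05). Sod1, the cytosolic superoxide dismutase, measured 1303 and 1244 in WT and 613 and 717 in TKO cells (-0.94). Tdh, the threonine dehydrogenase on which mouse ESCs depend, measured 778 and 738 in WT and 404 and 444 in TKO cells (-0.84). In all 3 the groups were apart by more than the replicates were. Cnbp, a nucleic-acid-binding zinc finger protein (-0.66), the small-RNA gene AF357359 (-0.96), the cytokine Mif (-0.59), the histone variant gene H2afz (-0.61), Ldha and Apoe (below) and Trh made up the rest. Calls near the 1.5-fold limit moved with the scaling: Hspa8, Mif, H2afz, Cnbp and Apoe were not called with the deposited TPM or with quantile normalisation, and Ldha was not called with quantile normalisation. Mif and H2afz were also not called without TKO replicate 1 or without WT replicate 1.

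**Figure D2:**
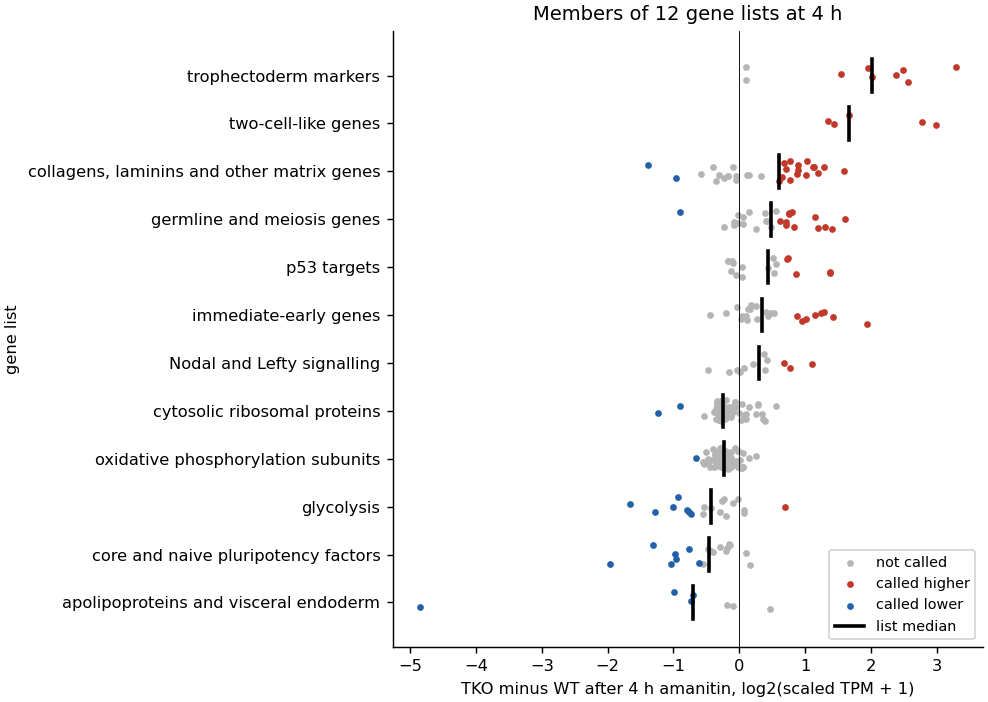
Difference between TKO and WT at 4 h, in log2(scaled TPM + 1), for the tested members of 12 gene lists, 1 point per gene, coloured by call, with the list median as a bar. Medians run from 2.01 for trophectoderm markers to -0.71 for apolipoproteins and visceral endoderm, where Apoa2 lies far to the left at -4.85.

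Pluripotency genes came first among the gene groups, since the cells are ESCs. The counts of called members in every group below stand against 11.1% higher and 5.83% lower of all tested genes, and none was tested against that background. A member under the expression limit in 1 genotype was included through the other, so the filter in part sets its direction. Of 18 core and naive pluripotency factors, 7 fell and none rose, with a median of -0.46 against -0.005 over all tested genes. Zfp42 (Rex1), a zinc finger protein of naive ESCs, measured 396 and 405 scaled TPM in WT and 110 and 94.7 in TKO cells (-1.96, SE 0.067, adjusted p = 2.01e-07). Gbx2, a homeobox gene downstream of LIF (-1.31), Tcl1, a coactivator of Akt (-1.04), Nr0b1 (Dax1, -0.98), Klf4 (-0.96), the orphan receptor gene Esrrb (-0.77) and Klf5 (-0.62) fell less. Klf4 was the least even, at 33.7 and 43.3 in WT against 20.6 and 17.9 in TKO cells. The core factors were not called: Pou5f1 measured 1480 and 1422 in WT and 967 and 1123 in TKO cells (-0.48), Sox2 differed by -0.18 and Nanog by 0.16. Among 22 other ESC markers 2 rose and 3 fell. Tex19.1, a germ cell and ESC gene, rose from 33 and 33.3 to 155 and 152 (2.18), and Pecam1, an adhesion molecule, by 0.74. Tdh, the secreted phosphoprotein gene Spp1 (-0.63) and the let-7-binding protein gene Lin28a (-0.61) fell. Klf5, Spp1 and Lin28a were called neither with the deposited TPM nor with quantile normalisation, Klf5 also not without TKO replicate 2, Spp1 not without WT replicate 1 and Lin28a not without TKO replicate 1.

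Genes of the early lineages moved in both directions. Of 9 trophectoderm markers 7 rose and none fell, with a median of 2.01. The simple-epithelial keratins Krt8 (chr15:101827142-101834773, minus strand) and Krt18 (chr15:101858647-101862457, plus strand), which pair in filaments and lie side by side, rose together. Krt8 measured 95.1 and 101 scaled TPM in WT and 512 and 598 in TKO cells (2.48, SE 0.11, adjusted p = 7.99e-07). Krt18 measured 79.6 and 87.7 in WT and 456 and 540 in TKO cells (2.56, SE 0.12, adjusted p = 1.02e-06). Krt7 rose from 2.74 and 2.78 to 32.9 and 38.8 (3.29), Krt19 from 18 and 20.1 to 70.4 and 89.9 (2.01), and the placental genes Plac1 (2.37), Ascl2 (1.95) and Hand1 (1.55) rose from under 2.2 scaled TPM in WT. Hand1 and Plac1 were under 0.5 in both WT libraries and passed the expression limit through their TKO values, so the filter in part sets the direction of this count too. The regulators Cdx2, Elf5, Gata3, Tfap2a and Esx1 of the list of 14 were below the expression limit. Besides these markers, 5 of 5 two-cell-like genes that passed the limit rose, of 28 listed. Their TKO values were low. Pramel7 (chr2:87329244-87337250, minus strand), a preimplantation gene, measured 0 and 0.0402 in WT, a single read, and 7.5 and 6.78 in TKO cells. Its neighbour Pramel6 measured 0.292 and 0.437 in WT and 8.72 and 7.99 in TKO cells (2.78), and Tcstv1, Gm5662 and Tcstv3 rose by 1.67, 1.44 and 1.35. Genes of this list passed the expression limit mainly through their TKO values, so the filter in part sets their direction and the count gives no support.

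Of 10 neural genes above the limit, 3 rose (the Notch ligand gene Dll1 by 1.03, Sox3 by 0.92 and the neural progenitor filament gene Nes by 0.63) and 2 fell (Olig1 and Olig2). Dll1 and Sox3, with WT means of 0.85 and 0.40 scaled TPM, passed the limit through their TKO values. Olig1 and Olig2 passed it through their WT values. Of 12 primed epiblast genes 3 rose and 1 fell (background 11.1% and 5.83%). Sall2, a spalt-family factor, rose from 2.81 and 3.35 to 17.6 and 15.8 (2.12), Zic2 from 5.84 and 5.34 to 14.1 and 11.9 (1.08), and the Wnt inhibitor gene Sfrp2 by 0.82, while Fgf15 fell from 6.72 and 6.49 to 2.19 and 1.88 (-1.33). Of the 4 mesendoderm regulators above the limit, Wnt3 rose by 1.04 and T (brachyury) fell by 0.61 at about 1 to 2 scaled TPM, a call lost with the deposited TPM and without WT replicate 2. Wnt3, with a WT mean of 0.48 scaled TPM, passed the limit through its TKO values. T, with a TKO mean of 0.98, passed it through its WT values. Of 7 apolipoprotein and visceral endoderm genes none rose and 4 fell. Besides Apoa2, Apoe measured 828 and 792 in WT and 457 and 520 in TKO cells (-0.73), Apoc1, which lies next to it in the genome, 49 and 42.1 in WT and 20.9 and 24.1 in TKO cells (-0.98), and the transferrin gene Trf fell by 0.71, which was not called with the deposited TPM.

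Signalling groups were mixed. Of 12 genes of Nodal and Lefty signalling 3 rose and none fell, among them the signal transducer gene Smad3 by 0.77 and Lefty1, a Nodal antagonist, by 0.68. Lefty1 measured 61.5 and 61.7 scaled TPM in WT and 113 and 86.9 in TKO cells, and without TKO replicate 1 it was not called, at 0.49. Of 10 Wnt pathway targets 2 rose (Tcf7l2 by 0.90 and Tcf7l1 by 0.72, both transcription factors of the pathway) and 3 fell. Bmp4, a ligand of the BMP pathway, fell from 24.6 and 23.9 to 7.07 and 6.82 (-1.67), Cdx1 by 1.38, and Notum, which inactivates Wnt ligands, from 31.9 and 29.2 to 11.3 and 11.8 (-1.33). Of 13 genes of FGF-ERK feedback, Phlda1 (0.63) and the receptor gene Fgfr1 (0.61) rose and Etv5 (-0.65) fell. Neither rise was called without WT replicate 2, Phlda1 was not called with quantile normalisation, and Etv5 was called neither with the deposited TPM nor with quantile normalisation. The immediate-early genes, which respond to growth factors within minutes and encode unstable messengers, had 8 higher and none lower of 24 (background 11.1% and 5.83%). Cyr61, a matricellular protein gene, measured 15.2 and 16.2 in WT and 68.7 and 58.3 in TKO cells (1.95, SE 0.12, adjusted p = 4.26e-06), and the AP-1 subunit gene Jun measured 3.67 and 3.73 in WT and 12.7 and 10.7 in TKO cells (1.43). Fosl2 (1.28), Klf6 (1.24), Ier5 (1.15), Fosl1 (1.01), Atf3 (0.95) and Btg2 (0.87) rose too. Fosl1, with a WT mean of 0.57 scaled TPM, passed the expression limit through its TKO values. Of 17 p53 targets 5 rose and none fell, among them the cell-cycle inhibitor gene Cdkn1a, from 3.11 and 3.8 to 10.8 and 10.3 (1.38), the kinase gene Plk2 (1.38), Perp (0.85), Ccng1 (0.74) and the BH3-only gene Pmaip1 (0.72). Of 20 genes of the ATF4 stress response 1 rose (Ddit3, 0.60) and 3 fell: Psat1 (-0.65) and Asns (-0.63), enzymes of serine and asparagine synthesis, and Atf5 (-0.63). Psat1 and Asns were not called with the deposited TPM, with quantile normalisation or without TKO replicate 1, Atf5 was not called with the deposited TPM, and Ddit3 was not called with quantile normalisation or without TKO replicate 2 or WT replicate 2.

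Metabolic and housekeeping lists lay mostly below 0. Of 19 glycolysis genes 7 fell and 1 rose, with a median of -0.44. Pfkp, the platelet-type phosphofructokinase, measured 83.6 and 86 scaled TPM in WT and 25.2 and 27.4 in TKO cells (-1.65, SE 0.054, adjusted p = 1.58e-07). Pdk1, the kinase that inhibits pyruvate dehydrogenase, measured 125 and 126 in WT and 50.4 and 51.5 in TKO cells (-1.29). The liver form Pfkl fell by 1.00, Tpi1 by 0.93, Ldha by 0.80, Aldoc by 0.76 and Pgk1 by 0.74 (the last not called with the deposited TPM or with quantile normalisation), whereas the muscle form Pfkm rose from 21.3 and 19.6 to 32.1 and 35.1 (0.69). The 3 phosphofructokinase genes thus moved in different directions. Of 24 sterol genes 1 fell (Ebp, the sterol isomerase, -1.16). Of 82 cytosolic ribosomal protein genes 2 fell, Rpl39l (-1.24) and Rpl10l (-0.89), both paralogs of more abundant genes from which multi-mapping reads could be split. The medians of the ribosomal protein list (-0.24) and of 75 oxidative phosphorylation subunits (-0.23) were below 0, and were -0.09 and -0.08 with the deposited TPM and about -0.05 for both with quantile normalisation. Without TKO replicate 1 both were -0.14. In the latter list only Ndufv3 was called (-0.65), and not with the deposited TPM, with quantile normalisation or without TKO replicate 1. Of 13 subunits of RNA polymerase II, the target of the toxin, Polr2i fell (-0.71) and the largest subunit gene Polr2a rose, from 37.3 and 40.0 to 59.7 and 60.3 (0.62). Polr2i was called neither with the deposited TPM nor with quantile normalisation, and Polr2a not without WT replicate 1. Of 38 genes of mRNA decay, the deadenylase subunits Cnot6l (0.92) and Cnot8 (0.60) rose and the exosome subunit Exosc3 fell (-0.62). Without WT replicate 1 neither Cnot8 nor Exosc3 was called, Cnot8 was also lost without TKO replicate 1, and Exosc3 with the deposited TPM and with quantile normalisation.

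Extracellular matrix genes form the scaffold and basement membrane around cells. Of 31 collagen, laminin and other matrix genes 16 rose and 2 fell, with a median of 0.61, and with quantile normalisation 10 rose and 3 fell. The basement-membrane collagen genes Col4a1 and Col4a2 lie next to each other. Col4a1 measured 29.5 and 35.7 scaled TPM in WT and 67.6 and 76.1 in TKO cells (1.12), and Col4a2 measured 10.7 and 12.4 in WT and 27.6 and 31.5 in TKO cells (1.29). The secreted glycoprotein gene Sparc rose from 158 and 164 to 283 and 320 (0.90), and Col5a2 (1.60) and Col5a1 (1.20) rose as well. In the other direction Lama1, the laminin chain of the early embryo, fell from 54 and 56.9 to 20.5 and 20.9 (-1.38), and the linker protein gene Nid2 from 157 and 162 to 78.4 and 85.4 (-0.95). The summed fibroblast or feeder markers were also higher in TKO cells, by the values given above. Their largest contributors moved oppositely, Tagln from 60.1 and 64.7 to 118 and 152 and Acta2 from 55 and 69.2 to 23.2 and 35.8, and the part of such cells in the matrix values was not tested. Of 5 clustered protocadherins above the limit, of 59 listed, Pcdhga3 fell (-0.71), and these overlapping genes share exons that counting may split.

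Chromatin regulators write, read or erase marks on DNA and histones. Of 21 genes of DNA methylation and base excision repair 2 rose, both Gadd45 genes: Gadd45a from 39.9 and 46.2 to 85.3 and 78.1 (0.91) and Gadd45g from 2.43 and 2.28 to 11.3 and 8.32 (1.67). Of 30 Polycomb subunits 4 rose (Pcgf5 by 0.81, Suz12 by 0.75, Yaf2 by 0.70 and Cbx8 by 0.61) and 2 fell (Cbx7 by 0.75 and Eed by 0.64). Suz12 and Eed, 2 core subunits of Polycomb repressive complex 2, thus differed in opposite directions, Suz12 at 128 and 123 in WT against 218 and 205 in TKO cells, and Eed at 304 and 299 in WT against 197 and 190 in TKO cells. Eed was called neither with the deposited TPM nor with quantile normalisation, Yaf2 neither with quantile normalisation nor without WT replicate 2, and Cbx8 in neither of those nor without TKO replicate 1. Among 9 transcripts that the study named as carrying 5hmC, Eed was the only one called. Jarid2 measured 216 and 209 in WT and 151 and 151 in TKO cells (-0.49), and Sfpq (-0.45), Mbd3 (-0.40), Paf1 (-0.35), Smarcc1 (-0.17), Mdc1 (-0.11), Dab1 (-0.01) and Cdh4 (0.43) were smaller. A wider list took the 360 gene symbols given for 5hmC peaks with a negative log ratio of TKO to WT in the study's table as used here. Peaks without a symbol were left out, so the list need not hold every transcript with less 5hmC in TKO cells. Of these symbols 292 were tested, 26 were higher (8.9%, against 11.1% of all tested genes) and 19 were lower (6.5%, against 5.83%), with a median of -0.08.

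Germline genes are a group that DNA methylation is known to keep silent outside germ cells. Of 27 germline and meiosis genes above the limit 12 rose and 1 fell (Rpl10l), with a median of 0.48, and 9 rose with quantile normalisation. Stra8, the retinoic acid response gene of meiotic entry, measured 0.721 and 0.359 scaled TPM in WT and 3.13 and 4.26 in TKO cells (1.61). Tex15, needed for meiotic recombination, measured 5.37 and 4.9 in WT and 15.5 and 12.9 in TKO cells (1.31). Mael, a piRNA pathway gene, rose by 1.15 and Ddx4 (Vasa), a germ cell RNA helicase, from 18.7 and 18.5 to 34.7 and 33.4 (0.84). Ddx4 was the most abundant of the genes that rose. Hormad2 (1.40), Fkbp6 (1.19), Taf7l (0.79), Dmc1 (0.76), Tuba3a (0.75), Dazl (0.71), Tdrd1 (0.71) and Gpat2 (0.61) rose too. Stra8, Hormad2 and Gpat2 averaged 0.54, 0.92 and 0.98 scaled TPM in WT and passed the expression limit through their TKO values. The filter thus in part sets the direction of this count. Promoters of 3 of the genes that rose are printed, chosen because they carry an E-box, with 250 bases before each start from RefSeq (GRCm38.p6, strand as transcribed). Capitals mark CACGTG, an E-box that is its own reverse complement, and TCCCGC or its reverse complement GCGGGA, an E2F6-type motif.
Ddx4 (chr13:112652311-112652560, minus strand): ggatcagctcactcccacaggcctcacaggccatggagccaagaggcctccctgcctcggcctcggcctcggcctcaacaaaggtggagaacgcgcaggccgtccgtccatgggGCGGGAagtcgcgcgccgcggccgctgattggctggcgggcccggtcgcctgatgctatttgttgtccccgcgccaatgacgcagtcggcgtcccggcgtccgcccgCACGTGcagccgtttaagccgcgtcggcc
Mael (chr1:166238745-166238994, minus strand): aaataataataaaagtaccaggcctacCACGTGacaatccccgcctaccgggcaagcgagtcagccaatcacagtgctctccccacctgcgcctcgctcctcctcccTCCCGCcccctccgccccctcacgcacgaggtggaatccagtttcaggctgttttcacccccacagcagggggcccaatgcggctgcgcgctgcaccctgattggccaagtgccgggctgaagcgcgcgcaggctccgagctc
Taf7l (chrX:134476491-134476740, minus strand): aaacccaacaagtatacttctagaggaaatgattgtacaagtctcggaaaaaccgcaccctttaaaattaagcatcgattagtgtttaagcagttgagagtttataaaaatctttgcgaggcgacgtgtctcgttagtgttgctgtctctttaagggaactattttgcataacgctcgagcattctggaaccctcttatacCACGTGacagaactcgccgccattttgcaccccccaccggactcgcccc
The E-box was present in 5 of the 11 germline genes that rose and had a promoter in the table (45.5%), and in 6 of 13 that did not rise (46.2%), against 10.4% of the 8636 tested genes with a promoter and 6.02% of all 32851 promoters. TCCCGC on either strand was found in 4 of the 11 and 7 of the 13, against 35.8% of the tested genes. Neither share was higher among the germline genes that rose than among those that did not, and a match of letters is a description only.

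Imprinted genes included the largest rise and a row of neighbours that fell. Of 33 imprinted genes 3 rose (H19, Peg10 by 0.87 and the cyclin-dependent kinase inhibitor gene Cdkn1c by 0.79) and 4 fell (Grb10 by 0.96, Rian by 0.91, Mirg by 0.90 and Meg3 by 0.75). Meg3, Rian and Mirg are maternally expressed non-coding RNAs that lie in a row on chromosome 12. Meg3 measured 18.1 and 17.4 scaled TPM in WT and 10.3 and 9.98 in TKO cells, Rian 219 and 221 in WT and 116 and 117 in TKO cells, and Mirg 26.3 and 27.7 in WT and 15.6 and 12.6 in TKO cells. The 3 RNAs fell by similar amounts. From Meg3 to the end of Mirg (chr12:110779211-110987665) 41 features were tested, 20 were lower and none higher, with a median of -0.78, and -0.88 at 0 h. Of these, 37 were microRNA features, 16 of them lower, but their median was 6.25 reads and only 11 had a mean of 10 reads or more, 6 of them lower. The features share transcripts, so they are not separate measurements of the region.

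MicroRNA features in these libraries are counts over hairpin genes in long-RNA sequencing, which reads precursors and host transcripts and does not tell the arms apart. Of the 11 microRNA features of the chromosome 12 cluster with a mean of at least 10 reads, 6 fell. A mature sequence of each of these 6 is printed, the 5p arm where one is named. The sequences come from RefSeq (GRCm38.p6, plus strand, written 5′ to 3′), and capitals mark the seed, bases 2 to 8.
miR-432 (chr12:109595006-109595028): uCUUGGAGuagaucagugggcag
miR-1193-5p (chr12:109715716-109715735): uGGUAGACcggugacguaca
miR-654-5p (chr12:109723235-109723256): uGGUAAGCugcagaacaugugu
miR-382-5p (chr12:109733781-109733802): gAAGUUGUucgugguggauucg
miR-134-5p (chr12:109734145-109734166): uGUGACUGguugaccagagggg
miR-377-5p (chr12:109740515-109740536): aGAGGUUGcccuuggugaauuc
No seed was shared between the printed sequences, and the other arms were not compared. Mir432 measured 31 and 33.9 scaled TPM in WT and 18.6 and 7.05 in TKO cells (-1.41, SE 0.31, adjusted p = 4.21e-03), and Mir1193 measured 21.1 and 17.9 in WT and 7.89 and 7.49 in TKO cells (-1.23, SE 0.13, adjusted p = 5.73e-05). Mir382 (-0.87), Mir134 (-0.93), Mir654 (-0.77) and Mir377 (-0.68) fell from 17.8 to 39.4 in WT to 9.89 to 22.2 in TKO cells.

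Over all 211 microRNA features 30 rose and 31 fell (background 11.1% and 5.83%), with a median of 5 reads per library. The counts were 18 and 37 without TKO replicate 1, 36 and 26 without TKO replicate 2, 19 and 35 with quantile normalisation, and 22 and 20 with limma voom on recovered reads. Among the 65 features with a mean of 10 reads or more 4 rose and 11 fell. Mirlet7f-1, a let-7 gene, measured 19.4 and 21.8 scaled TPM in WT and 49.5 and 33.9 in TKO cells (0.96). Mir1983 (-0.82) and Mir3070b (-0.62) fell, the latter losing its call without TKO replicate 2 or WT replicate 2. Small nucleolar and Cajal body RNAs, which guide the modification of other RNAs and are mostly cut from introns, had 7 higher and 1 lower of 100. The largest with at least 10 reads were Snord1c (0.73), Snord35a (0.72) and Snord2 (0.69), and Snora5c rose by 0.62. TKO replicate 1 was the higher one in all of these, with Snord2 at 192 and 181 in WT against 360 and 252 in TKO cells. Without it 2 rose and 3 fell, and Snord2, Snord35a and Snora5c were not called. Of 12 genes that host snoRNAs none was called by limma, with 5 at an adjusted p below 0.05 whatever the fold, and their most abundant member Snhg1 differed by -0.01 (adjusted p = 0.917). Of 61 replication-dependent histone genes 3 rose (Hist1h2ba, Hist1h2aa and Hist2h3c2, by 0.60 to 0.72) and 3 fell. Without TKO replicate 1 the counts were 2 and 5, and without TKO replicate 2 or WT replicate 2 only Hist1h2ba was called higher. Hist1h4i fell from 380 and 386 to 95.6 and 85.9 (-2.07, SE 0.055, adjusted p = 6.64e-08) and Hist1h2bp from 145 and 156 to 55.6 and 49.7 (-1.50). These genes belong to families of near-identical copies, so counting may split their reads. At 0 h 12 microRNA features were higher and 36 lower, against 1 and 3 small nucleolar and Cajal body RNAs and 0 and 9 histone genes. The 0 h medians were -0.22, -0.16 and -0.38, against 0.03, 0.07 and -0.17 at 4 h. For the snoRNA host genes they were -0.24 at 0 h and -0.03 at 4 h. These shifts of whole lists between the times were not tested.

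The same contrast at 0 h, in cells not given amanitin, called 1293 genes higher (10.5%) and 664 lower (5.37%). It shared no library with the 4 h contrast, although the 2 shared the estimate of the spread. Of the genes called at 0 h, 83.9% (1642 of 1957) were called in the same direction at 4 h, 86.5% of the higher and 78.9% of the lower ones. Those 1642 were 78.6% of the 2089 called at 4 h. The genotype difference at 4 h was a median of 0.982 times that at 0 h over the genes called at 0 h (quartiles 0.867 and 1.1), and was below 0.5 times it for 57 and of opposite sign for 9. Over the genes called at 4 h the median ratio was 1.06, so it depends on the time by which genes were chosen. Genes called at a single time were mostly close to the limit at the other. The 315 called only at 0 h had the same sign at 4 h in 306 cases, with an adjusted p below 0.05 in 261, and medians of 0.64 and 0.51 for the higher and -0.68 and -0.47 for the lower at 0 h and 4 h. The 447 called only at 4 h had the same sign at 0 h in 430 cases, with an adjusted p below 0.05 in 368.

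**Figure D3:**
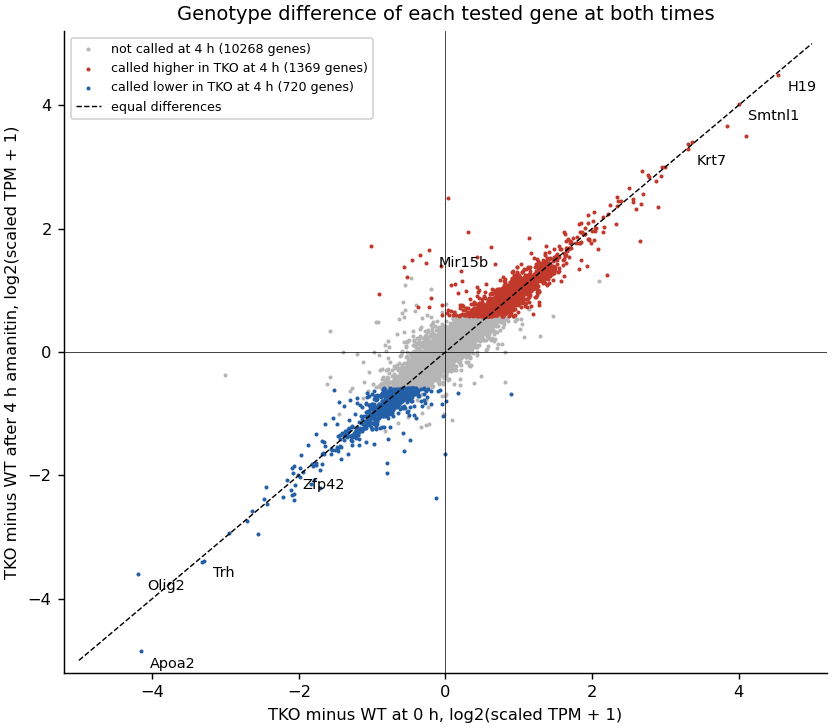
Difference between TKO and WT at 4 h of amanitin (vertical axis, log2 of scaled TPM + 1) against that at 0 h (horizontal axis), 1 point per tested gene, coloured by call. Points lie along the line of equal differences, H19 at 4.54 and 4.49 being the highest.

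Between 4 h and 0 h fewer genes were called than between the genotypes. In WT cells 13 genes were higher and 241 lower at 4 h than at 0 h, and in TKO cells 1 and 21. The TKO 4 h replicate 1 lay at -2.21 on the second component, closer to the 0 h libraries than its replicate at -14.9. The TKO count is not given without it. These counts are therefore no measure of a difference in depletion between the genotypes, which only the interaction below tests. Cyr61 fell by 1.01 in WT and by 0.93 in TKO cells, so that its genotype difference was 1.87 at 0 h and 1.95 at 4 h. Klf6 fell by 0.74 and by 0.59, with genotype differences of 1.09 and 1.24. Both messengers were depleted in both genotypes while their genotype differences were near those at 0 h. Lefty1 was lower at 4 h than at 0 h in WT (-0.95) and was not called in TKO cells (-0.53). Its genotype difference was 0.26 at 0 h and 0.68 at 4 h, with an adjusted p for the interaction of 0.659, and of 0.0353 without TKO replicate 2. The test of the difference between the times, the interaction of genotype with time, called no gene (0% of 12357, smallest adjusted p 0.491 by limma). At an unadjusted p below 0.05 there were 934, and limma voom on recovered reads also called none, with 965. Of the 5 genes called only at 4 h with the smallest interaction p, Mir709 measured 0.852 and 0 scaled TPM in WT and 7.51 and 6.0 in TKO cells at 4 h, and 3.94 to 4.76 in all libraries at 0 h, from a mean of 4.25 reads. 2900060B14Rik measured 4.02 and 4.63 in WT and 9.84 and 9.23 in TKO cells (0.99, and 0.27 at 0 h), and 2010003O02Rik 14.3 and 15.2 in WT and 5.87 and 7.2 in TKO cells (-1.07, and -0.40 at 0 h). Snord1c and Mir15b were the other two. Of those called only at 0 h, Mir191 (-3.01, then -0.37), Mir1188 (-1.04, then -0.33) and the histone gene Hist4h4 (-0.79, then -0.45) were lower at 0 h, and Hint3 (0.67, then 0.20) and Mxra7 (0.72, then 0.13) higher. Adjusted p-values of the interaction were 0.49 to 0.62 for all 10, so none was shown to differ between the times.

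The differences were unevenly spread over the chromosomes. Chromosome 1 had 124 higher and 17 lower of 646 genes, with a median of 0.20 (0.18 at 0 h), and chromosome 11 had 194 and 26 of 1015, with a median of 0.26 (0.25 at 0 h). Together 318 of their 1661 genes were higher and 43 lower, against 9.9% higher and 6.2% lower of 10454 genes on the other chromosomes, whose median was -0.045. Both TKO libraries at 4 h lay above both WT libraries in the chromosome medians. The copy number of chromosomes was not measured here, and its part in these values was not tested. Without chromosomes 1, 6 and 11, a choice made after the values were seen, 964 genes were higher and 618 lower of 10156. On the chromosomes left, 11 of 22 matrix genes were higher and 2 lower, 8 of 20 germline genes higher and 1 lower, 5 of 21 immediate-early genes higher, and 6 of 14 pluripotency factors lower. Among the other lists, both ESC markers that rose, Polr2a and 2 of the 4 Polycomb subunits that rose lay on chromosomes 1, 6 or 11. Of the 10 Wnt pathway targets, 6 lay there, among them Tcf7l1, which rose, and Notum, which fell. On the chromosomes left, 1 of 4 was higher and 2 lower, with a median of -0.94 against 0.10 for the whole list.

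**Figure D4:**
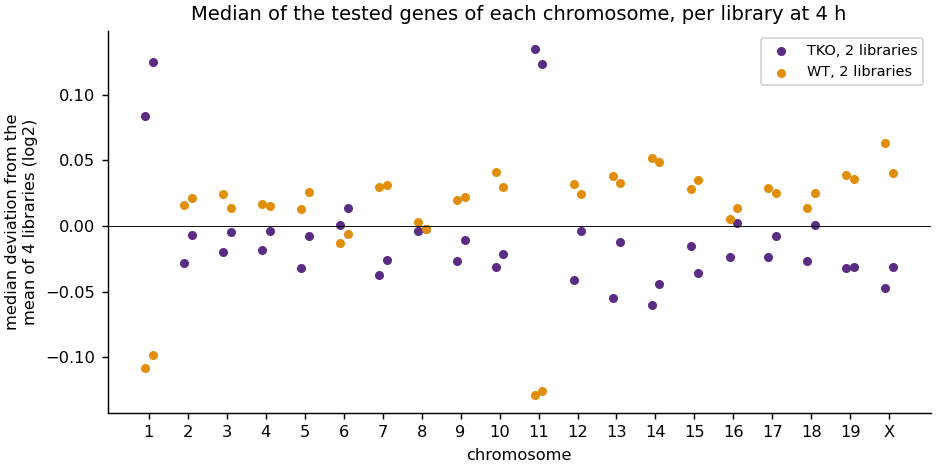
Median deviation of the tested genes on each chromosome from the mean of the 4 libraries at 4 h, on the log2(scaled TPM + 1) scale, 1 point per library. On chromosomes 1 and 11 the TKO libraries lie at 0.084 to 0.135 and the WT libraries at -0.129 to -0.098.

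Chromosome 6, which carries Tet3, held neighbouring stretches of opposite sign. The running median of 15 genes changed sign 3.02 Mb past the start of Tet3, between Snrpg and Pcyox1. In the 30 Mb before that point (chr6:56651059-86328896) 35 of 96 genes were higher and 1 lower, with a median of 0.53 (0.51 at 0 h), and 93 of the 96 lay above 0. In the 30 Mb after it (chr6:86336000-116359558) 6 of 123 were higher and 43 lower, with a median of -0.42 at both times, and 99 lay below 0. The medians of the rest of the chromosome were 0.10 before and -0.08 after. Each stretch showed in all 4 libraries, with median deviations of 0.279 and 0.258 in TKO and -0.271 and -0.248 in WT for the first. The windows were set after the values were seen, so no test is given. Several genes described above lie there, Gadd45a in the higher stretch and Trh and Cnbp in the lower one. Within 5 Mb of Tet1 4 of 51 genes were higher and 3 lower (median -0.13), and within 5 Mb of Tet2 5 of 37 were higher and 7 lower (-0.19), and no running median was made there. DNA copy number and strain background of the 2 lines were not measured here, and their part in this pattern was not tested.

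**Figure D5:**
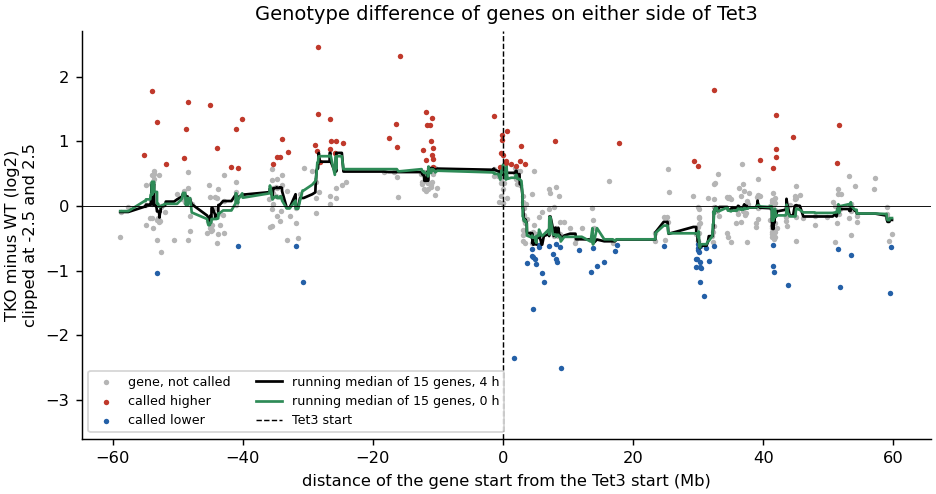
Difference between TKO and WT (log2 of scaled TPM + 1) for genes on chromosome 6 against their distance from the start of Tet3 in Mb, with running medians of 15 genes at 4 h and 0 h. Gene points are at 4 h and limited to the range -2.5 to 2.5. The running median at 4 h lies above 0 throughout the 30 Mb before it changes sign 3.02 Mb past Tet3, and farther upstream it lies on both sides of 0.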

How the data were processed

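Total RNA of WT and TKO ESCs, given α-amanitin for 4 h or untreated, was depleted of ribosomal RNA and sequenced in strand-specific, paired-end libraries. The authors removed reads of ribosomal and transfer RNA with Bowtie2 after quality filtering with FastQC, AfterQC and Trimmomatic, aligned the rest to mm9 with STAR, counted RefSeq genes with HTSeq and deposited TPM per library, without pooling replicates. Tool versions, the strand setting of the counting and the treatment of multi-mapping reads are not given in the sources used here. TPM keep no depth as such, but the values of the 19869 genes above 0 were whole multiples of a step per gene (100% of genes, relative tolerance 1e-13), so reads were recovered up to a common divisor. The intervals of such reads cover counting error only.

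Each library's TPM were scaled by a size factor, the median of ratios to the geometric mean taken over 12357 tested genes. The scaled TPM of the 8 ribodepleted libraries (4 groups of 2) were transformed to log2 after adding 1 and fitted with limma 3.58.1 (R 4.3.3; eBayes with a trend, Benjamini-Hochberg adjustment over all tested genes). Since TPM are not counts, a count model was not the main test. Genes were called at an adjusted p under 0.05 and over 1.5-fold. The fit was tested on simulated data. Members, gene lists, tests and the rule for named genes were chosen with earlier results of these data known. The rule took the Tet genes, the 10 largest rises and falls with a mean of at least 5 scaled TPM, the 10 most abundant called genes, the 2 most abundant called members of each list, the 5 genes called at a single time with the smallest interaction p in each direction, and the 3 largest microRNA and small nucleolar RNA differences with at least 10 reads. The largest rises and falls were taken only among called genes whose libraries did not overlap between the genotypes. MicroRNAs, small nucleolar RNAs and some other small RNAs were left out of that choice. Other members are named to complete the counts of their list, and a few genes that the rule or a list takes are not reported here. The list of 5hmC peaks lower in TKO was taken from the study's supplement, for its symbols only. Gene positions are those of the GENCODE annotation of NCBIM37, and printed sequences are from RefSeq on GRCm38.p6. Alternatives were other scalings, pseudocounts and filters, a replicate block, no variance trend, limma voom on recovered reads, the 4 libraries at 4 h alone, no fold threshold, each library left out, and, added after the data were seen, chromosomes 1, 6 and 11 left out.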

Additional observations from a re-analysis of the deposited data

Results flagged for a closer look

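Only the named genes and those called in opposite directions at the 2 times were searched here, not all tested genes. Among these, 6 small-RNA features were picked out. Their libraries separated the 2 genotypes in opposite directions at 4 h and 0 h, or their calls were opposite. The interaction of genotype with time did not pass adjustment for any of them with all libraries (adjusted p 0.49 to 0.66 by limma). Snord1c, a small nucleolar RNA, differed by 0.733 at 4 h and -0.371 at 0 h, with 20.2 and 20.1 scaled TPM in WT and 37.7 and 31.0 in TKO cells at 4 h. Snord35a differed by 0.724 and -0.224, and its call at 4 h was lost without TKO replicate 1 and without WT replicate 2, while its interaction was called without TKO replicate 2 (adjusted p = 0.0483 by limma). Mir15b, the hairpin of an RNA of the miR-15 family, differed by 1.646 and -0.218 from a mean of 7.75 reads, and its interaction was called without either WT replicate (adjusted p = 0.0343 and 0.00142 by limma). Mir5128 differed by 1.725 and -1.011 from a mean of 2.25 reads, Mir674 by 0.937 and -0.911 from 8.5 reads, and Mirlet7i by -0.688 and 0.895 from 3 reads. These 3 were the only ones of the 12357 tested genes called in opposite directions at the 2 times.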

How the results depend on the processing

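The counts at 4 h (1369 higher, 720 lower) were within 1.5 times of the main value in both directions under quantile normalisation, the smaller pseudocount, no filter, no variance trend, voom, the 4 libraries alone and every left-out library. They moved to 443 lower with the deposited TPM, 582 and 417 with a pseudocount of 5 TPM, 820 and 451 with a mean TPM over 5, which tests fewer genes, and 3610 and 3760 with no fold threshold. Without each library at 4 h they ranged from 1354 to 1449 and from 710 to 791, where a group left with 1 library is assumed to vary like the others. The interaction called 1 gene with no filter (Mir680-2, named after its value was seen). Leaving out a library at 4 h, it called 2 without TKO replicate 1 (Mir409, Mir432), 9 without TKO replicate 2 (D7Ertd143e, Lefty1, Mir17hg, Mir1898, Mir3058, Mir669b, Snora34, Snord2, Snord35a), 3 without WT replicate 1 (Mir15b, Mir669c, Mir709) and 4 without WT replicate 2 (Mir15b, Mir191, Mir5119, Mir709), so 0 to 9 in all, and the cause was not tested. The share of 0 h calls also called at 4 h was 86.6% with the deposited TPM, 82.1% with quantile normalisation, 84.9% with a mean TPM over 5, 81.6% with no filter, 85.0% with voom, 85.1% with no fold threshold and 81.1% to 83.8% without each library, and the reverse share was 72.1% to 79.7% without each library. The median ratio over genes called at 0 h was 0.997 with the deposited TPM, 0.958 with quantile normalisation and 0.989 with a mean TPM over 5. It was 0.973 with no filter, 1.005 with no fold threshold and 0.957 to 0.986 without each library.

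Of the 95 named genes, 16 lost their call with the deposited TPM and 16 with quantile normalisation, 10 without TKO replicate 1, 9 with a pseudocount of 5 TPM, 7 without WT replicate 1 and at most 4 under any other setting. Signs turned only for genes not called in the main fit, where Snhg1 was at -0.01, Tet3 at 0.05, Mxra7 at 0.13 and Mir191 at -0.37. Snhg1 was at 0.146 with the deposited TPM, 0.226 with quantile normalisation, 0.028 with a mean TPM over 5, and -0.169 to 0.151 without each library. With quantile normalisation Tet3 was at -0.199 and Mxra7 at -0.0284. Mir191 ranged from -1.04 to 0.288 without each library. List medians near 0 also turned: with the deposited TPM those of the mesendoderm, imprinted, DNA methylation and repair, sterol, snoRNA host and 5hmC lists, and with quantile normalisation those of the snoRNA host and microRNA lists. Replicate numbers are shared between groups by name alone. The correlation of same-numbered deviations was -0.0579 between TKO and WT at 4 h and at most 0.129 for any pair of groups. The replicate block gave 1366 higher and 724 lower genes with no interaction called, and it changed no call of the 95 named genes. Depth limits the microRNA features, 146 of 211 of which had a mean under 10 reads.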

Other observations

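Runs of neighbouring genes with a shared direction were also sought along all chromosomes, in windows of 20 tested genes moved by 5. Of 2356 windows, 88 had a median difference at 4 h over 0.35 and 34 under -0.35. Windows over the limit lay on chromosome 11 (35), chromosome 1 (20), chromosome 6 (19), and in smaller numbers elsewhere. Those under it lay mainly on chromosome 6 (19) and chromosome 12 (9). Windows overlap, and no test was made of them.

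Polymerase III products made up a large part of the TPM in both genotypes. Rpph1, the RNA of ribonuclease P, held 8.24 ± 0.034% of the deposited TPM in WT and 7.49 ± 0.28% in TKO cells after amanitin, and Rmrp, the RNA of ribonuclease MRP, 6.36 ± 0.18% and 5.99 ± 0.14% (SD, n = 2 each). For Rpph1 the libraries of the genotypes did not overlap, with 8.22 and 8.27% in WT against 7.3 and 7.69% in TKO cells, and for Rmrp the lower WT library (6.24%) lay above the higher TKO library (6.09%). Of the 12357 tested genes 9690 showed no overlap at 4 h, so its lack does not set these RNAs apart. TPM are per length, so these short RNAs hold a larger share of TPM than of reads.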
